A study of Mus musculus with 18 samples.

Results

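The genes examined were 8 of the 24602 genes in the count table, and they were chosen by name: Nphs1, Magi2, Cd2ap, Ptpro, Podxl, Synpo, Wt1 and Tcf21, which are used to recognise podocytes of the kidney glomerulus. Gene-level read counts from RNA-seq of mice of strain 129S1/SvlmJ were available for 18 libraries, 3 in each of 6 groups. The groups crossed nuclear RNA and total RNA with Nup93 wild type (WT), Nup93 R388W/+ (heto) and Nup93 R388W/R388W (homo), where R388W is a knock-in change in Nup93, a structural protein of the nuclear pore. The sample labels called the material mouse tissue, whereas the series text named isolated podocytes, and neither gave an age, a sex or a number of animals. The labels do not tell whether a group's 3 libraries stem from different animals, and each p-value below describes no more than the scatter among the libraries at hand, which could be technical.

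Podocytes wrap the glomerular capillaries with interdigitating foot processes, and the gaps between these are bridged by the slit diaphragm, the last barrier of the kidney filter. Nephrin, the product of Nphs1, spans that gap and is tied to the actin skeleton of the foot process by adaptors such as CD2AP and MAGI2, while podocalyxin and the phosphatase encoded by Ptpro sit on the free cell surface. Wt1 and Tcf21 encode transcription factors that podocytes need for their development and upkeep, and human variants in several of these genes, as in NUP93, are known in nephrotic syndrome.

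Levels are given as CPM, a gene's counts divided by the library total in M (mega) counts, with totals scaled by the trimmed mean of M-values (TMM), and differences as log2 fold changes ± SE with the adjusted p from edgeR quasi-likelihood fits, which is the form of the values in parentheses. A difference was called at a Benjamini-Hochberg adjusted p under 0.05. Libraries held 17.4 to 23.5 M counts as used here, after a correction of Total_WT replicate 1 that is described with the processing. Gene counts do not read the R388W allele itself, so they did not check the genotype labels. Xist, the RNA of the inactive X chromosome, stood at 334 to 545 CPM in the Nuclear_heto, Nuclear_homo and Total_WT libraries and at 0.341 to 1.67 CPM in the Nuclear_WT, Total_heto and Total_homo libraries, and 4 Y-linked genes showed the reverse. Each comparison of homo or heto with WT inside a fraction, and of nuclear with total RNA inside WT, heto or homo, therefore set libraries of unlike Xist status against each other, and genotype or fraction cannot be told apart from Xist status there. Homo and heto libraries of the same fraction had like Xist status. The 4 Y-linked genes summed to 2.32 to 2.95 CPM in Nuclear_heto and 0.510 to 0.744 CPM in Nuclear_homo. In the libraries low in Xist they summed to 151 to 164 CPM. The source of the higher trace in Nuclear_heto was not tested. The nuclear libraries of a genotype were unlike its total libraries in Xist and in the Y-linked genes, so either they did not come from the same animals or labels were crossed between libraries, and which of these holds was not tested. Groups are named as labelled, and each direction holds for the libraries so labelled. The fraction labels were checked with Malat1 and Neat1, RNAs known to stay in the nucleus. In WT their means were lower in the nuclear than in the total libraries, at 1738 ± 47.2 against 2318 ± 93.6 CPM for Malat1 and 577 ± 6.25 against 636 ± 14.1 CPM for Neat1, so this check showed no nuclear enrichment there. Heto libraries had 2364 ± 153 against 2025 ± 24.7 CPM of Malat1, and homo libraries 2079 ± 196 against 2141 ± 59.3. Neat1 was higher in the nuclear libraries of both, at 660 ± 6.96 against 529 ± 13.0 CPM in heto and 634 ± 6.50 against 603 ± 2.65 CPM in homo. The precursor ribosomal RNA gene Rn45s took 7.12% of the counts of Total_homo replicate 2 and at most 1.02% elsewhere.

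Promoter windows of 250 bases before the RefSeq start site (GRCm38.p6) were at hand for 5 of the 8 genes (Nphs1, Cd2ap, Tcf21, Ptpro and Magi2, the last with a pair of starts) and were searched on both strands for GTGGGAG, a 7-base core of the sites bound by the WT1 protein (CTCCCAC when read on the opposite strand). The motif was in the Ptpro and Cd2ap windows, which are shown because Wt1 is itself a member of the set, with the motif in capitals. They are printed 5′ to 3′ along the gene's strand. In Ptpro, at chr6:137252049-137252298 on the plus strand, the motif began 35 bases before the start site. In Cd2ap, at chr17:42876425-42876674 on the minus strand, it began 42 bases before the start site and lay on the opposite strand.
Ptpro: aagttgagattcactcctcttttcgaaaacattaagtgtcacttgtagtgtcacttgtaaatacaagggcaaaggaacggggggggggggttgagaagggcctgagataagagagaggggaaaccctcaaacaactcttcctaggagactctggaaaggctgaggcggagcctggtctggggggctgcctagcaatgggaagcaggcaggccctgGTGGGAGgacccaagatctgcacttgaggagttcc
Cd2ap: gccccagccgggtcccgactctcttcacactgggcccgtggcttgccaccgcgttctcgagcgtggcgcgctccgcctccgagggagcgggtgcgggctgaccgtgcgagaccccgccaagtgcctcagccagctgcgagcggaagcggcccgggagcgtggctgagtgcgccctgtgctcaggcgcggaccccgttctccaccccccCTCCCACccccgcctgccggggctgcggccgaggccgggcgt
The other windows did not hold these letters. Among all RefSeq windows of that length, 2710 of 32851 (8.25%) held the motif, so a match is a description of the sequence and not a bound site.

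All 8 genes were detected in every library and all passed the filter on low counts. Per kilobase of the deposited gene length, mean levels over the 18 libraries ran from 37.6 CPM per kb for Podxl and 37.4 for Cd2ap, through 15.3 for Tcf21 and 8.41 for Synpo, to 2.29 for Nphs1, 1.84 for Wt1, 1.80 for Ptpro and 1.47 for Magi2. The spans between the highest and the lowest group mean were widest for Nphs1 (2.90-fold), Wt1 (2.82-fold) and Ptpro (2.43-fold) and narrowest for Cd2ap (1.43-fold) and Magi2 (1.31-fold). Total_heto was the lowest group for 6 genes, and Total_homo was the lowest for Tcf21 and Magi2. Counts per library were smallest for Wt1, at 39 to 160, and largest for Cd2ap, at 2697 to 4881, and the median coefficient of variation between replicates was highest for Wt1, at 12.7%.

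**Figure D1:**
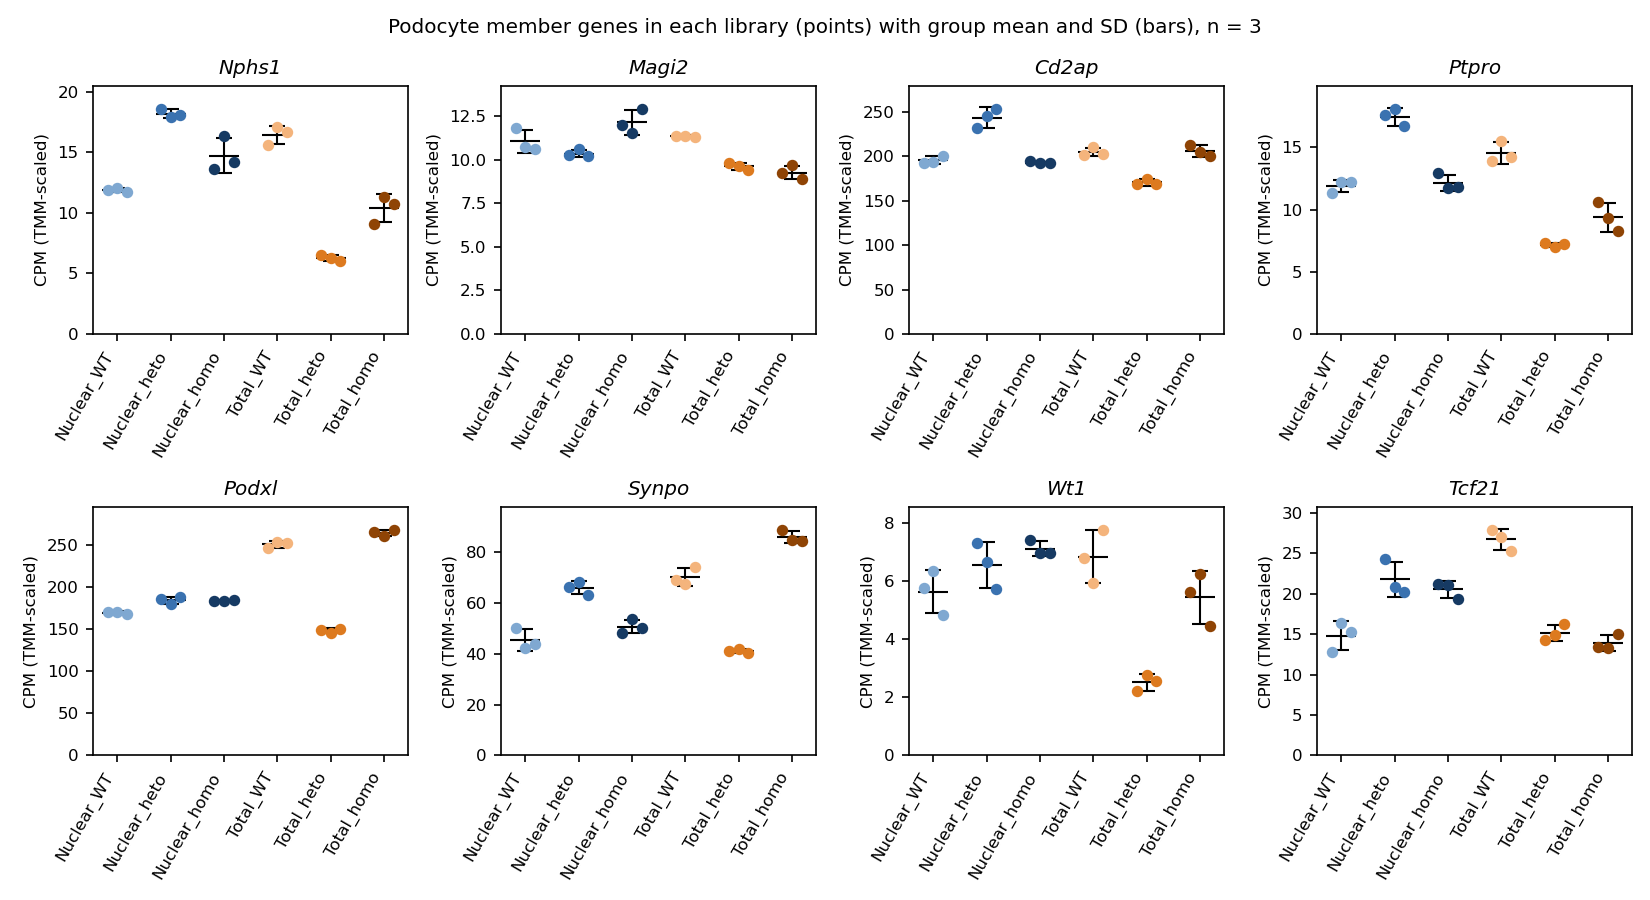
TMM-scaled CPM (vertical axis, from 0) of each gene in the 6 groups, with points for the 3 libraries, horizontal lines for group means and error bars for their SD. Total_heto is the lowest group in every panel except those of Tcf21 and Magi2, and Nphs1 runs from 6.05 to 18.6 CPM over the libraries.

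Nphs1, the gene of nephrin, was highest in nuclear RNA of heterozygotes and lowest in total RNA of heterozygotes. Its level was 11.9, 12.1 and 11.7 CPM in the 3 Nuclear_WT libraries, 18.6, 17.9 and 18.1 in Nuclear_heto and 13.6, 16.4 and 14.2 in Nuclear_homo. In total RNA it was 15.6, 17.1 and 16.7 CPM in WT, 6.53, 6.26 and 6.05 in heto and 9.08, 11.3 and 10.7 in homo. The groups of a fraction did not overlap, and the order was WT, homo, heto from low to high in nuclear RNA and heto, homo, WT in total RNA. In nuclear RNA Nphs1 was called higher in homo than in WT (0.31 ± 0.0817, adjusted p = 0.000711) and in heto than in WT (0.62 ± 0.0795, adjusted p = 8.07e-11), and lower in homo than in heto (-0.30 ± 0.0750, adjusted p = 0.000482). In total RNA it was called lower in homo than in WT (-0.66 ± 0.0880, adjusted p = 4.03e-11), and 2.61-fold lower in heto than in WT (-1.39 ± 0.0994, adjusted p = 4.16e-27). Total homo libraries were above total heto ones (0.73 ± 0.107, adjusted p = 8.96e-10), a comparison of libraries with like Xist status. Of the 6 group means, ordered by level, only the neighbours Nuclear_homo (14.7 ± 1.45 CPM, SD, n = 3) and Total_WT (16.5 ± 0.750 CPM) overlapped in their libraries. The strand setting of the counting was not given in the sources used here, and the antisense gene Nphs1os had 0 to 1 counts per library.

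Magi2, which encodes a scaffold protein that binds the tail of nephrin, varied least. Its nuclear levels were 11.8, 10.8 and 10.7 CPM in WT, 10.3, 10.6 and 10.2 in heto and 12.0, 11.5 and 13.0 in homo, and its total levels 11.4, 11.4 and 11.3 CPM in WT, 9.82, 9.68 and 9.42 in heto and 9.23, 9.69 and 8.90 in homo. Both mutant groups lay below WT in total RNA without overlap, while the nuclear groups of WT and homo overlapped. Magi2 was called lower in total homo than in WT (-0.29 ± 0.0944, adjusted p = 0.00562) and in total heto than in WT (-0.24 ± 0.0965, adjusted p = 0.0274). The heto call was lost with DESeq2 (-0.23) and without Total_heto replicate 2 (-0.24) or 3 (-0.22). Nuclear homo libraries were called above nuclear heto (0.23 ± 0.0873, adjusted p = 0.0286). It was no longer called under DESeq2 (0.24), with library totals alone (0.17) and without Nuclear_heto replicate 1 (0.21) or 3 (0.22) or Nuclear_homo replicate 3 (0.18). The nuclear differences of homo (0.13 ± 0.0864, adjusted p = 0.212) and heto (-0.10 ± 0.0902, adjusted p = 0.338) from WT and the total difference between homo and heto (-0.051 ± 0.0997, adjusted p = 0.664) did not pass the threshold. With library totals alone the nuclear homo difference from WT was 0.25 and passed.

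Cd2ap encodes an adaptor that links nephrin to actin and that many kidney cells besides podocytes make. It stood at 193, 194 and 200.3 CPM in Nuclear_WT, 231, 246 and 254 in Nuclear_heto and 194, 192 and 192 in Nuclear_homo, and at 202, 210.3 and 202 CPM in Total_WT, 168, 175 and 168 in Total_heto and 213, 204 and 200.1 in Total_homo. Only the heterozygotes stood apart: above both other groups in nuclear RNA and below both in total RNA, without overlap. Nuclear heto against WT gave 0.32 ± 0.0291, adjusted p = 5.63e-17, and total heto against WT gave -0.26 ± 0.0271, adjusted p = 1.74e-16. Homo libraries were called lower than heto ones in nuclear RNA (-0.34 ± 0.0290, adjusted p = 5.67e-18) and higher in total RNA (0.28 ± 0.0271, adjusted p = 7.38e-18). Homo against WT did not pass in nuclear RNA (-0.021 ± 0.0293, adjusted p = 0.574) or in total RNA (0.014 ± 0.0267, adjusted p = 0.664). The nuclear value turned to 0.10 and passed with library totals alone.

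Ptpro, whose promoter window is printed above and which encodes a receptor tyrosine phosphatase of the foot process surface, had the same order of group means as Nphs1. Nuclear libraries had 11.3, 12.2 and 12.2 CPM in WT, 17.6, 18.1 and 16.7 in heto and 12.9, 11.7 and 11.8 in homo. Total libraries had 13.9, 15.5 and 14.2 CPM in WT, 7.32, 7.01 and 7.24 in heto and 10.6, 9.29 and 8.29 in homo. Nuclear WT and homo overlapped, nuclear heto lay above both, and in total RNA the groups ran heto, homo, WT from low to high without overlap. Ptpro was called higher in nuclear heto than in WT (0.56 ± 0.0795, adjusted p = 2.03e-09) and lower in nuclear homo than in heto (-0.53 ± 0.0778, adjusted p = 1.42e-08). In total RNA it was called lower than WT in heto (-1.01 ± 0.0997, adjusted p = 1.15e-17) and in homo (-0.62 ± 0.0922, adjusted p = 1.54e-09), and higher in homo than in heto (0.39 ± 0.107, adjusted p = 0.000722). Nuclear homo against WT did not pass (0.033 ± 0.0842, adjusted p = 0.765).

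Podxl encodes podocalyxin, the sialylated protein that coats the podocyte surface and is also made by endothelial cells. It had 170.4, 170.2 and 168 CPM in Nuclear_WT, 185, 179.7 and 188 in Nuclear_heto and 184, 183 and 184 in Nuclear_homo. The total libraries held 246, 253 and 253 CPM in WT, 149, 146 and 151 in heto and 266, 261 and 268 in homo. All nuclear WT libraries lay below those of both mutant genotypes, which overlapped, and Total_heto lay below both other total groups without overlap. Nuclear homo against WT gave 0.12 ± 0.0291, adjusted p = 0.000324, and nuclear heto against WT gave 0.12 ± 0.0292, adjusted p = 0.000155. Podxl was called 1.69-fold lower in total heto than in WT (-0.75 ± 0.0259, adjusted p = 3.32e-59) and 1.79-fold higher in total homo than in heto (0.84 ± 0.0259, adjusted p = 8.94e-65). Total homo against WT was small but called (0.084 ± 0.0250, adjusted p = 0.00208), and this call was lost with library totals alone (0.059) and with the column of Total_WT replicate 1 as deposited (0.21). Nuclear homo against heto did not pass (-0.0043 ± 0.0289, adjusted p = 0.925). The summed endothelial markers were likewise lowest in Total_heto and highest in Total_homo among the total groups, with values given beside the cell type lists, and the part of endothelial RNA in the Podxl values was not tested.

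Synpo encodes synaptopodin, an actin-binding protein of foot processes. Its nuclear levels were 50.1, 42.1 and 43.7 CPM in WT, 66.3, 68.3 and 63.2 in heto and 48.2, 53.5 and 50.3 in homo. Its total levels were 68.9, 67.2 and 74.2 CPM in WT, 41.1, 41.8 and 40.2 in heto and 88.5, 84.5 and 84.2 in homo, and the total groups did not overlap. Total homo was thus the highest group for Synpo, as for Podxl, whereas for Nphs1 and Ptpro it lay below every WT library of total RNA. Synpo was called lower in total heto than in WT (-0.77 ± 0.0419, adjusted p = 6.77e-38), higher in total homo than in WT (0.29 ± 0.0356, adjusted p = 5.73e-13) and 2.10-fold higher in total homo than in heto (1.07 ± 0.0405, adjusted p = 2.63e-54). In nuclear RNA it was called higher in heto than in WT (0.54 ± 0.0477, adjusted p = 2.47e-16) and lower in homo than in heto (-0.38 ± 0.0462, adjusted p = 9.54e-11). Nuclear homo against WT was called with overlapping groups (0.16 ± 0.0491, adjusted p = 0.00499), and the call was lost without Nuclear_WT replicate 2 (0.11) or Nuclear_homo replicate 2 (0.11).

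Wt1, the zinc finger transcription factor gene, had 5.74, 6.33 and 4.83 CPM in Nuclear_WT, 7.29, 6.65 and 5.72 in Nuclear_heto and 7.41, 6.96 and 6.95 in Nuclear_homo. Total_WT had 6.80, 5.94 and 7.75 CPM, Total_heto 2.21, 2.78 and 2.56 and Total_homo 5.63, 6.25 and 4.45. Total_heto was the only group that overlapped with no other, and of the remaining 5 groups each overlapped with its neighbours in the order of means. Wt1 was called 2.71-fold lower in total heto than in WT (-1.44 ± 0.153, adjusted p = 7.47e-16) and higher in total homo than in heto (1.12 ± 0.159, adjusted p = 3.03e-10). Total homo against WT was called lower (-0.32 ± 0.126, adjusted p = 0.0206). This was lost with DESeq2 (-0.32), with the column of Total_WT replicate 1 as deposited (-0.28) and without Total_WT replicate 3 (-0.22) or Total_homo replicate 3 (-0.20). Nuclear homo against WT was called higher (0.33 ± 0.117, adjusted p = 0.0121), and this was lost with DESeq2 (0.33) and without Nuclear_WT replicate 3 (0.24). Nuclear heto against WT (0.22 ± 0.121, adjusted p = 0.097) and nuclear homo against heto (0.11 ± 0.113, adjusted p = 0.461) did not pass. The heto value passed with library totals alone (0.40), at a minimum mean of 5 CPM (0.27) and without Nuclear_WT replicate 2 or Nuclear_heto replicate 3 (0.31 each). The antisense gene Wt1os had 1 to 11 counts per library, and reads of the pair cannot be told apart where strand was not used.

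Tcf21 encodes a basic helix-loop-helix transcription factor of podocytes and of the kidney stroma. Nuclear levels were 12.8, 16.4 and 15.2 CPM in WT, 24.2, 20.9 and 20.2 in heto and 21.2, 21.1 and 19.3 in homo, and total levels 27.9, 27.0 and 25.3 CPM in WT, 14.3, 14.9 and 16.2 in heto and 13.4, 13.3 and 15.0 in homo. Both mutant genotypes lay above WT in nuclear RNA and below WT in total RNA, in each case without overlap, and the mutant groups overlapped each other in both fractions. The calls were 0.48 ± 0.0768, adjusted p = 8.43e-08 for nuclear homo against WT and 0.57 ± 0.0768, adjusted p = 5.21e-10 for nuclear heto against WT. In total RNA the values were -0.94 ± 0.0725, adjusted p = 2.23e-24 for homo and -0.82 ± 0.0737, adjusted p = 4.63e-20 for heto, each against WT. Homo against heto did not pass in nuclear (-0.086 ± 0.0710, adjusted p = 0.349) or in total RNA (-0.12 ± 0.0813, adjusted p = 0.205).

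Counted over the set, total heto against WT was the one genotype comparison within a fraction in which every member was called, 8 of 8 lower, where 61.1% of all genes were called, 30.9% higher and 30.3% lower. The median log2 fold change of the 8 genes was -0.80 there, beside -0.01 for all genes tested. Total homo against WT called 2 higher (Podxl and Synpo) and 5 lower (Nphs1, Magi2, Ptpro, Wt1 and Tcf21), with 61.6% of all genes called (30.6% higher and 31.0% lower) and a member median of -0.31. Total homo against heto called 6 higher, all but Magi2 and Tcf21, with 67.0% of all genes called (32.9% higher and 34.1% lower) and a member median of 0.56. In nuclear RNA heto against WT called 6 higher, all but Wt1 and Magi2, with 64.6% of all genes called (32.8% higher and 31.7% lower), and the member median was 0.43. Nuclear homo against WT called 5 higher and 0 lower, with 54.3% of all genes called (26.5% higher and 27.8% lower) and a member median of 0.14. Nuclear homo against heto called 1 higher (Magi2) and 4 lower (Nphs1, Cd2ap, Ptpro and Synpo), with 43.2% of all genes called (21.4% higher and 21.8% lower) and a member median of -0.19. The median over all genes lay between -0.01 and 0.024 in these 6 comparisons. Where the share of members called was near that of all genes, the count is not a result about the set. Without Total_homo replicate 2, the library rich in Rn45s, 7 members were called in total homo against WT and 6 in total homo against heto, beside 7 and 6 with it. Without Total_WT replicate 1, the corrected column, 8 members were called in total heto against WT and 7 in total homo against WT. Comparisons inside a fraction share their libraries and are set side by side for that reason. In these bulk libraries fewer podocytes, less RNA per podocyte and a larger share of RNA from other kidney cells cannot be told apart.

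**Figure D2:**
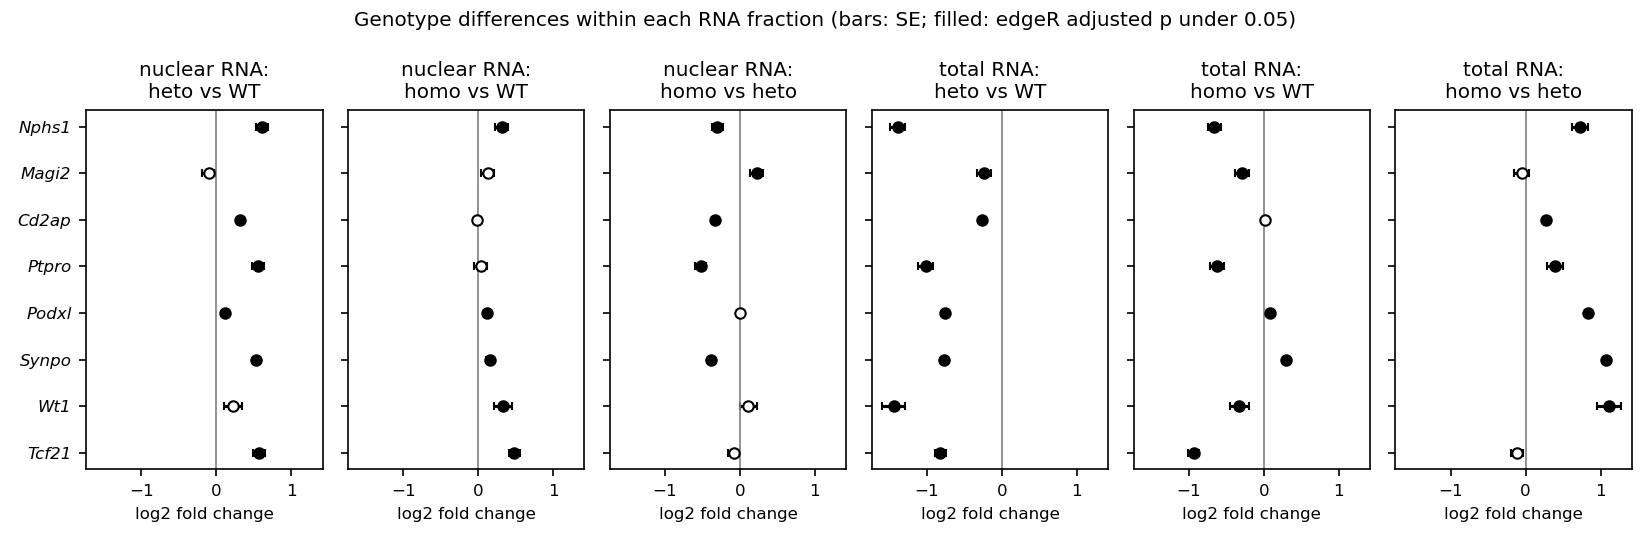
Log2 fold changes (horizontal axis) of the 8 genes for the genotype comparisons in nuclear and in total RNA, with SE bars; filled points passed the edgeR threshold. In total heto against WT all points lie below 0, from -1.44 to -0.24, and in nuclear heto against WT they run from -0.10 to 0.62.

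Nuclear RNA was also set against total RNA within each genotype, as labelled. The unlike Xist status above means that these are not fractions of the same animals, or that labels were crossed, and every value below carries that limit. In WT all members except Magi2 (-0.032 ± 0.0897, adjusted p = 0.778) were called lower in nuclear RNA, 7 of 8, where 61.7% of all genes were called, 30.9% higher and 30.8% lower. The lowest values were those of Tcf21 (-0.86 ± 0.0723, adjusted p = 1.43e-21), Synpo (-0.62 ± 0.0445, adjusted p = 4.52e-24) and Podxl (-0.56 ± 0.0273, adjusted p = 3.15e-43), and Nphs1 was at -0.47 and Ptpro at -0.29. The WT calls of Wt1 (-0.28 ± 0.124, adjusted p = 0.0433) and Cd2ap (-0.065 ± 0.0284, adjusted p = 0.0395) changed with the processing. Wt1 lost its call with no low-count filter (-0.27), with DESeq2 (-0.28), with the deposited Total_WT column (-0.24) and without Nuclear_WT replicate 1 (-0.29) or 3 (-0.18) or Total_WT replicate 1 (-0.28) or 3 (-0.17). Cd2ap lost its call in the same 3 other settings (-0.055, -0.066 and -0.076) and without Nuclear_WT replicate 1 (-0.052) or 2 (-0.057) or Total_WT replicate 2 (-0.044).

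In heterozygotes the direction was the opposite, with 7 of 8 members called higher in nuclear RNA, where 63.6% of all genes were called, 33.4% higher and 30.2% lower. Nphs1 (1.53 ± 0.0951, adjusted p = 9.1e-33), Wt1 (1.39 ± 0.152, adjusted p = 4.06e-15) and Ptpro (1.28 ± 0.0935, adjusted p = 9.46e-27) had the highest values, Synpo was at 0.68, Tcf21 at 0.53, Cd2ap at 0.51 and Podxl at 0.31. Magi2 did not pass (0.10 ± 0.0960, adjusted p = 0.345) except with library totals alone (0.30). Homozygotes split the set, with 5 called higher and 3 lower in nuclear RNA, where 60.3% of all genes were called, 30.5% higher and 29.8% lower. Tcf21 (0.56 ± 0.0752, adjusted p = 4.7e-11), Nphs1 (0.51 ± 0.0850, adjusted p = 7.75e-08), Magi2 (0.39), Wt1 (0.38) and Ptpro (0.37) were the higher ones. Synpo (-0.76 ± 0.0418, adjusted p = 1.03e-31), Podxl (-0.53 ± 0.0270, adjusted p = 1.79e-40) and Cd2ap (-0.10) were the lower ones. The Wt1 call in homozygotes was lost without Total_homo replicate 3 (0.26). The median of all genes was -0.013 in WT, 0.038 in heto and 0.0056 in homo, beside member medians of -0.38, 0.61 and 0.38.

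**Figure D3:**
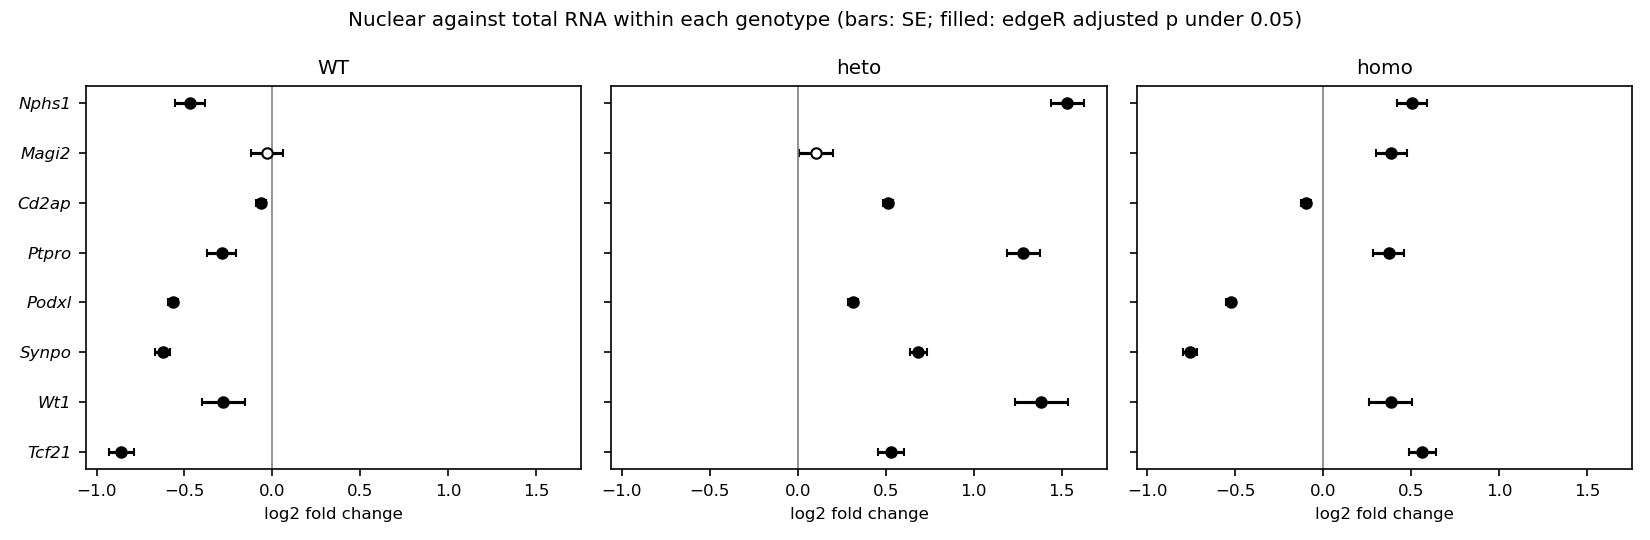
Log2 fold change of nuclear against total RNA (horizontal axis) for the 8 genes in WT, heto and homo, with SE bars and filled points where the edgeR threshold was passed. All points lie left of 0 in WT and right of 0 in heto, from 0.10 to 1.53, and they fall on both sides in homo.

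Because the Xist status of the groups was opposite in the nuclear and total fractions, an additive difference between high-Xist and low-Xist libraries cancels in a mean of the nuclear and total contrasts. Whether that difference was of equal size in the nuclear and total fractions was not tested. If labels were crossed between libraries, it need not cancel. Averaged in this way, heto against WT called 7 of 8 members lower and none higher, where 43.1% of all genes were called, 22.3% higher and 20.9% lower. This mean joined contrasts of opposite direction: nuclear heto against WT called 6 members higher and 0 lower, and total heto against WT called 8 lower. Nphs1, for example, was at 0.62 in nuclear and -1.39 in total RNA. Whether the heto difference from WT differed between the fractions was not tested as an interaction. The values were -0.39 ± 0.0644, adjusted p = 1.16e-07 for Nphs1, -0.61 ± 0.0995, adjusted p = 6.26e-08 for Wt1, -0.32 ± 0.0196, adjusted p = 2.68e-32 for Podxl and -0.23 ± 0.0642, adjusted p = 0.00171 for Ptpro. Magi2 (-0.17 ± 0.0657, adjusted p = 0.0286), Tcf21 (-0.13 ± 0.0532, adjusted p = 0.0439) and Synpo (-0.12 ± 0.0326, adjusted p = 0.00154) were called with values nearer to 0, and Cd2ap did not pass (0.025 ± 0.0202, adjusted p = 0.327). Synpo lost its call without Nuclear_WT replicate 1 (-0.077) and with the deposited Total_WT column (-0.058). Magi2 lost its call with DESeq2 (-0.17) and without Nuclear_WT replicate 1 (-0.14) or Total_heto replicate 3 (-0.16). Tcf21 lost its call in 8 of the fits that left out a library, namely without replicate 2 or 3 of Nuclear_WT (-0.088 and -0.12) or Nuclear_heto (-0.11 and -0.10) and without replicate 1 or 2 of Total_WT (-0.11 and -0.12) or Total_heto (-0.10 and -0.12). It also lost it with DESeq2 (-0.13), at a minimum mean of 5 CPM (-0.12) and with the deposited column (-0.034).

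Averaged homo against WT called 2 members higher and 3 lower, where 58.6% of all genes were called, 28.0% higher and 30.6% lower. For some members this mean also joined opposite directions, such as Nphs1 (0.31 in nuclear and -0.66 in total RNA) and Tcf21 (0.48 and -0.94). Synpo (0.22 ± 0.0307, adjusted p = 5.76e-10) and Podxl (0.10 ± 0.0192, adjusted p = 3.94e-06) were higher, and Ptpro (-0.30 ± 0.0620, adjusted p = 1.2e-05), Tcf21 (-0.23 ± 0.0527, adjusted p = 8.02e-05) and Nphs1 (-0.18 ± 0.0596, adjusted p = 0.00739) were lower. Wt1 (0.002), Cd2ap (-0.0069) and Magi2 (-0.083) did not pass. The Nphs1 call was lost with library totals alone (-0.13) and without Total_homo replicate 1 (-0.13), and that of Tcf21 with the deposited Total_WT column (-0.13). Podxl and Synpo thus stood on the other side of WT from Nphs1 and Ptpro in homozygotes, both in total RNA and in this mean. The genotype difference itself differed between the nuclear and total fractions for 5 of 8 members in homo against WT, where 56.1% of all genes were called, 28.4% higher and 27.7% lower, and for 6 of 8 in homo against heto, where 63.6% of all genes were called, 31.7% higher and 31.9% lower.

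Other podocyte genes were followed in 4 lists, with log2 fold changes in parentheses that passed the edgeR threshold. Of all genes tested, 30.9% were called higher and 30.3% lower in total heto against WT. The shares were 30.6% and 31.0% in total homo against WT and 32.9% and 34.1% in total homo against heto. In nuclear RNA they were 32.8% and 31.7% for heto against WT and 26.5% and 27.8% for homo against WT. For nuclear homo against heto they were 21.4% and 21.8%. Where a list's share is near these, its count is not a result about the list. Of 21 slit diaphragm partners tested, total heto against WT called 5 higher and 11 lower (median -0.19). The scaffold gene Iqgap1 (-0.35) was among the lower ones, and Ildr2 (0.65) and the large cadherin gene Fat1 (0.55) among the higher ones. Total homo against WT called 7 higher and 5 lower (median 0.042), with the adaptor gene Nck1 (-0.59) lower and Ildr2 (0.42) and Fat1 (0.31) higher. Nuclear heto against WT called 11 higher and 3 lower, with Magi1 (0.45), a relative of Magi2, and Cdh3 (0.61), the gene of P-cadherin, higher and the polarity genes Mpp5 (-0.39) and Pard3 (-0.39) lower. Nuclear homo against WT called 4 higher and 6 lower. Homo against heto called 0 higher and 10 lower in nuclear RNA, with Fat1 at -0.29, and 14 higher and 6 lower in total RNA, with the junction gene Tjp1 at 0.38. The partners were therefore divided in direction in total heto against WT, where all 8 members were lower.

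The list of other podocyte transcription factors also held the adaptor gene Wtip. Of its 12 genes tested in total RNA, heto against WT called 4 higher and 6 lower (median -0.52), with Foxc1 at -0.57. In total homo against heto the list had 7 higher and 3 lower, with Wtip at 0.43. Of 26 genes of foot process actin and adhesion, total heto against WT called 4 higher and 18 lower (median -0.21), with the filament gene Nes (-0.90) and Daam2 (-0.97) lower and the talin gene Tln1 (0.36) higher. Total homo against heto called 19 higher and 6 lower of them, with the tensin gene Tns2 (0.76) and the integrin gene Itga3 (0.61) higher. The list of surface and secreted proteins also held genes of proteins inside the cell, such as Cdkn1c. Of its 34 genes, total heto against WT called 4 higher and 24 lower (median -0.41), with the matrix gene Npnt at -1.39. The peptidase gene Enpep (1.27), which proximal tubule cells also make, and Htra1 (1.13) were among the higher ones. In nuclear heto against WT the 3 lists had 7 higher and 3 lower, 11 higher and 6 lower and 20 higher and 7 lower, and Cdkn1c, the gene of a cell cycle inhibitor of mature podocytes, was at 1.51. In total homo against WT they had 3 higher and 2 lower, 10 higher and 9 lower and 9 higher and 11 lower. In nuclear homo against WT they had 5 higher and 3 lower, 11 higher and 8 lower and 16 higher and 7 lower, with Cdkn1c at 0.65.

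The labelled cell type was checked against its markers. The 8 genes together took 0.0368% to 0.0650% of the counts of a library, while 20 proximal tubule markers took 3.87% to 6.78%, so RNA of other kidney cells was present in every library. None of the listed markers of any cell type was at 0 throughout a group. Podxl and Cd2ap, with means of 200.2 and 202.1 CPM over the 18 libraries, made up most of the summed level of the 8 genes. Both are also made by other kidney cells, so that sum does not stand for podocytes alone. It did not follow Nphs1, Magi2, Ptpro, Wt1 and Tcf21, which were called lower in total homo than in WT. The summed level was 464 to 467 CPM in Nuclear_WT, 561 to 575 in Nuclear_heto and 492 to 496 in Nuclear_homo, and 592 to 608 CPM in Total_WT, 399 to 403 in Total_heto and 599 to 615 in Total_homo. Proximal tubule markers summed to 64595 to 65969.7, 38149 to 39087 and 43025 to 43500.3 CPM in the nuclear groups and 41786 to 42292, 72449 to 73586 and 39619 to 40357 CPM in the total groups, in the same order. They were highest in Total_heto and Nuclear_WT, the groups with the lowest summed levels of the 8 genes. Kap and Acsm2 made up much of that difference: Kap had 5402 ± 79.9 CPM in Total_WT and 22982 ± 502 in Total_heto, and Acsm2 had 1085 ± 22.5 and 7072 ± 33.1, while the median log2 fold change of the 20 markers in total heto against WT was 0.18. In total RNA 15 endothelial markers summed to 1786 to 1816 CPM in WT, 1375 to 1383 in heto and 2097 to 2107 in homo, and 14 mesangial markers to 471 to 482, 356 to 373 and 449 to 459.8. Distal nephron markers (18) summed to 15399 to 15623, 11830.3 to 11849.8 and 12329.9 to 12371 CPM and parietal cell markers (7) to 482 to 492, 362 to 374 and 521 to 531. Total_heto was thus the lowest total group for endothelial, mesangial, parietal and distal nephron markers as for the summed 8 genes, so its low level was not particular to glomerular markers. Total_homo was the highest for the endothelial markers as for Podxl. In total heto against WT 14 of 15 endothelial, 11 of 14 mesangial, 17 of 18 distal nephron (median -0.62), 6 of 7 parietal (median -0.48) and 5 of 20 proximal tubule markers were called lower, and 1, 2, 1, 1 and 14 were called higher, in the same order. Of all genes, 30.3% were called lower and 30.9% higher in that comparison. Immune cell markers took 0.179% of the counts in Nuclear_heto and 0.0554% to 0.107% in the other groups. The part of cell composition in the members' differences was not tested.

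**Figure D4:**
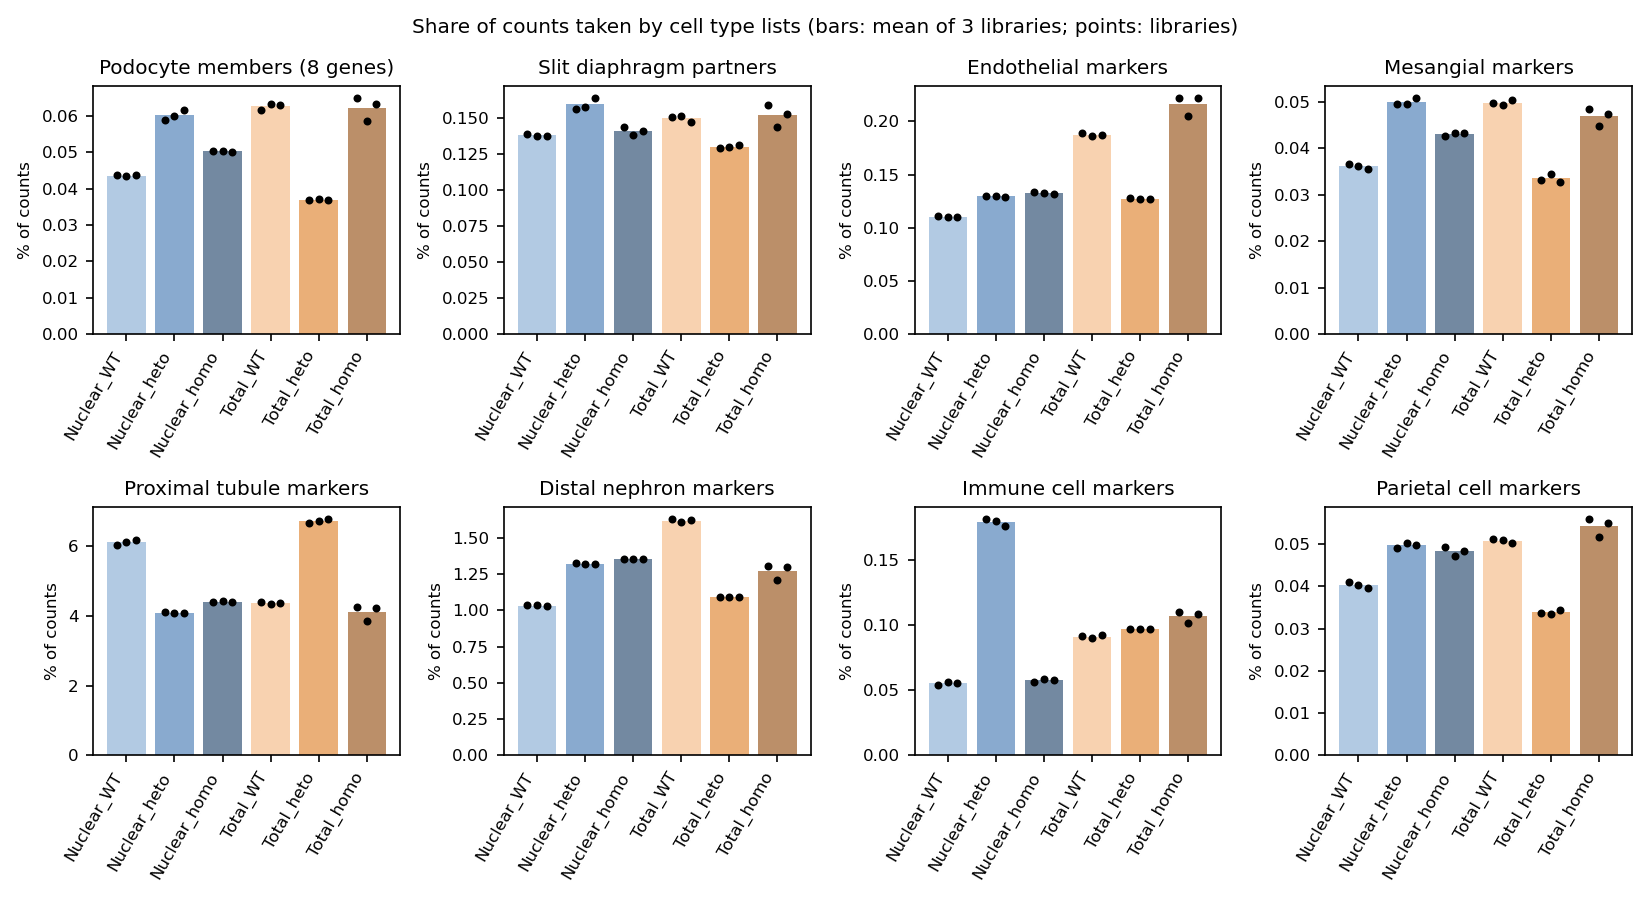
Share of each library's counts (vertical axis, percent, from 0) taken by the 8 genes and by lists of slit diaphragm partners and of other kidney cell types, with bars for the means of 3 libraries and points for libraries. The 8 genes are lowest in Total_heto (0.0369%) and Nuclear_WT (0.0436%), the groups in which proximal tubule markers are highest (6.73% and 6.11%). Podxl and Cd2ap take most of the share of the 8 genes.

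How alike the genes were was described by Pearson's r of log2(CPM + 1) over the 18 libraries, which share groups, Xist status and depth, so that r mostly reflects differences between the 6 groups. Nphs1 and Ptpro (0.93), Podxl and Synpo (0.91), Nphs1 and Wt1 (0.88) and Cd2ap and Ptpro (0.83) were the pairs most alike. Synpo and Magi2 (-0.23) were the pair least alike. With group means removed, r over the 28 pairs ran from -0.70 to 0.42. Among 11525 genes at a minimum mean of 5 CPM, the patterns most like Nphs1 were those of Atp6v1g3 (0.972), Acsl5 (0.967) and Pnmal2 (0.966). For Ptpro they were Lhfpl2 (0.967), Padi2 (0.955) and Kctd1 (0.953), and for Magi2 they were Atp5h (0.922), Slc25a23 (0.919) and Smim26 (0.915). Cd2ap resembled most Wnt4 (0.967) and Scd2 (0.964). Podxl resembled most Adgrf5 (0.973), Klk1b22 (0.965) and Npr1 (0.957), and Synpo resembled most Marveld1 (0.971), Nfkbia (0.971) and Ehd4 (0.964). The transcription factor gene Wt1 was nearest to Ap1m2 (0.945), Gsta2 (0.941) and Dmrt2 (0.940), and Tcf21 to Arvcf (0.950), Nccrp1 (0.947) and Slc17a2 (0.945). No other member was among the 3 genes most like any member.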

How the data were processed

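Nuclear and total RNA of 6 groups were measured by RNA-seq. The authors deposited raw counts per gene symbol in a single table, along with each gene's length in bases (another deposited value, which served only for CPM per kb). Per the submitters' processing notes, the tools were CASAVA, STAR 2.5.2b, featureCounts and DESeq2 and the build was mm9, with no roles or settings, while annotation and strand setting are not given in the sources used here. Sample names and genotype labels gave the groups.

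Total_WT replicate 1 was deposited with 200140709 counts. Every gene in it reached or exceeded its sum over the 9 nuclear columns (181106189 counts in all, 0 genes below), and this sum was taken off, which left 19034520 counts. Replicate libraries all differed by more than sampling noise, though mostly by little. The median chi-square over its expected value was 5.34 and 5.38 for pairs with Total_homo replicate 2. It was 1.28 to 1.95 for the other pairs. The edgeR fit of all 18 libraries had a biological coefficient of variation of 3.54%. That of the total fit was 3.90% and that of the nuclear fit 3.05%. Whether this scatter was technical or between animals was not tested. Statements on low counts reflect counting error alone.

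The software was R 4.3.3 and edgeR 4.0.16, using filterByExpr, TMM, and glmQLFit (robust) with glmQLFTest. Benjamini-Hochberg adjustment ran over all genes tested, at a threshold of 0.05. Genotypes within a fraction were fitted on its 9 libraries (15112 nuclear and 15051 total genes). Fractions, averages and interactions were fitted on all 18 (15410 genes), over which CPM were also scaled by TMM. The scripts were tested on simulated data. Alternatives changed the scaling (RLE size factors, library totals alone), the filter (none, or a minimum mean of 5 CPM), the tool (DESeq2 1.42.0) or the design (replicate number as a block, a fit of the compared groups alone, a fit of all 18 libraries). Others used Total_WT replicate 1 as deposited, removed Rn45s, or left out each library.

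The members, lists and alternatives were chosen with earlier results of these data known. All 8 members were named. From each other podocyte list up to 2 called genes per direction and comparison, with the smallest p at a minimum mean of 5 CPM, could be named. The text names a part of these, and some genes that met the rules are not reported here. Likeness is Pearson's r of log2(CPM + 1). Promoter windows are RefSeq sequences of GRCm38.p6, and no coordinate was taken from the count table.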

Additional observations from a re-analysis of the deposited data

Results flagged for a closer look

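The difference between homozygotes and WT was not the same in nuclear and in total RNA for 5 members. Of all genes, 56.1% were called in this test, 28.4% higher and 27.7% lower, so the count is not a result about the set. This was a test of the difference itself, an interaction term in the edgeR quasi-likelihood fit of all 18 libraries, with the total log2 fold change subtracted from the nuclear one. Tcf21 had the largest value (1.42 ± 0.104, adjusted p = 1.02e-25), with 0.48 in nuclear and -0.94 in total RNA. Nphs1 followed (0.98 ± 0.119, adjusted p = 8.45e-13), with 0.31 and -0.66, and Wt1 had 0.66 ± 0.174, adjusted p = 0.00058. Ptpro (0.66 ± 0.124, adjusted p = 1.49e-06) and Magi2 (0.42 ± 0.127, adjusted p = 0.00297) were called in the same direction. Podxl (0.038), Synpo (-0.13) and Cd2ap (-0.03) did not pass. Synpo passed with no low-count filter (-0.14), without replicate 2 (-0.18) or 3 (-0.16) of Nuclear_WT, and without Nuclear_heto replicate 3 (-0.13), Nuclear_homo replicate 2 (-0.18), Total_WT replicate 3 (-0.18) or Total_homo replicate 3 (-0.15), and Podxl passed with library totals alone (0.18). Nuclear_homo and Total_WT were high in Xist and Nuclear_WT and Total_homo were low, so these values cannot be told apart from Xist status.

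For homozygotes against heterozygotes, whose libraries had like Xist status within a fraction, 6 members differed between the fractions by the same kind of test, and each value was negative. Of all genes, 63.6% were called there, 31.7% higher and 31.9% lower. Synpo had -1.44 ± 0.0629, adjusted p = 1e-39, with -0.38 in nuclear and 1.07 in total RNA. Nphs1 had -1.03 ± 0.130, adjusted p = 3.96e-12, Wt1 -1.0 ± 0.198, adjusted p = 3.95e-06, Ptpro -0.91 ± 0.132, adjusted p = 6.3e-10, Podxl -0.84 ± 0.0389, adjusted p = 4.66e-45 and Cd2ap -0.61 ± 0.0403, adjusted p = 3.29e-30. Tcf21 (0.035) and Magi2 (0.28) did not pass. Magi2 passed with RLE size factors (0.29), with the replicate block (0.28), with Total_WT replicate 1 as deposited (0.28) and without replicate 2 of Nuclear_homo (0.32) or Total_homo (0.31). All nuclear libraries in this comparison were high in Xist and all total libraries low, so fraction and Xist status cannot be told apart.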

How the results depend on the processing

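The number of members called stayed within 1.5 times its value in each of the 13 comparisons under every alternative run. The shares of all genes called are given beside the counts in the Results, and a count near its share is not a result about the set. Single members lost or gained calls as given beside their values, and the cause was not tested. Wt1 had at most 160 counts per library, which limits its precision. A change of sign that passed the threshold occurred for Cd2ap with library totals alone: 0.10 in nuclear homo against WT (with TMM -0.021) and 0.11 in its difference between fractions (with TMM -0.03). A further 11 member differences that did not pass took the other sign under at least 1 alternative or left-out library, and none passed there (smallest edgeR or DESeq2 adjusted p = 0.122). With each library left out in turn, the number of members called was 4 to 5 for nuclear homo against WT, 6 to 7 for nuclear heto against WT, 4 to 5 for nuclear homo against heto, 6 to 7 for total homo against WT, 7 to 8 for total heto against WT, 6 each time for total homo against heto, 5 to 7 for nuclear against total in WT, 7 each time for nuclear against total in heto, 7 to 8 for nuclear against total in homo, 4 to 5 for averaged homo against WT, 5 to 7 for averaged heto against WT, 5 to 6 for the homo against WT difference between fractions and 6 to 7 for the homo against heto difference between fractions.

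Library totals alone moved the median of all genes to 0.14 in nuclear homo against WT, 0.20 in nuclear heto against WT, -0.19 in total heto against WT, 0.16 in total homo against heto, -0.17 in nuclear against total WT and 0.24 in nuclear against total heto, and to 0.17 and -0.23 in the differences between fractions. Of the genes called, the share called higher with TMM and with totals was 48.8% and 73.9% in nuclear homo against WT, 50.9% and 75.9% in nuclear heto against WT, 49.6% and 33.5% in nuclear homo against heto, 50.5% and 24.5% in total heto against WT, 49.1% and 68.4% in total homo against heto, 50.1% and 25.4% in nuclear against total in WT, 52.5% and 77.3% in nuclear against total in heto, 47.7% and 61.6% in averaged homo against WT, 50.7% and 70.4% in the homo against WT difference between fractions and 49.8% and 29.1% in the homo against heto difference between fractions. A minimum mean of 5 CPM left fewer transcription factor genes to test, which lowered that list's count in 6 comparisons.

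Replicate numbers occur in every group, but deviations of same-numbered libraries correlated at -0.064 to 0.037 over the pairs of genotypes inside a fraction. No pairing by number was seen there. Nuclear and total libraries of a genotype were not correlated in this way, so pairing between the fractions was not tested. With the replicate number as a block, 8 members were called in total heto against WT, 7 in total homo against WT, 6 in nuclear heto against WT and 5 in nuclear homo against WT. Of all genes, 9182 and 9249 of 15051 were called in the total comparisons and 9783 and 8242 of 15112 in the nuclear ones, in the same order. The block changed 1 of 104 member results: Magi2 passed in the homo against heto difference between fractions (0.28, adjusted p = 0.047 by edgeR).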

Other observations

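Further podocyte genes, chosen after their values were seen, fell into both of the patterns described for total RNA of homozygotes (mean ± SD, n = 3). Npnt, the gene of a matrix protein of the glomerular basement membrane, had 364 ± 0.469, 418 ± 7.86 and 403 ± 7.25 CPM in nuclear WT, heto and homo and 642 ± 3.35, 244 ± 3.67 and 333 ± 3.78 CPM in total WT, heto and homo, and like Nphs1 it was lower than WT in both mutant groups of total RNA. Mme, a peptidase gene of podocytes and proximal tubule cells, had 303 ± 6.77, 261 ± 6.55 and 292 ± 3.29 CPM in nuclear WT, heto and homo and 340.3 ± 4.46, 220.1 ± 4.41 and 171 ± 5.51 CPM in total WT, heto and homo. Cdkn1c had 21.6 ± 0.731, 61.5 ± 1.24 and 33.9 ± 1.25 CPM in nuclear WT, heto and homo and 31.5 ± 1.23, 16.5 ± 0.413 and 41.4 ± 1.13 CPM in total WT, heto and homo. For Cdkn1c, as for Synpo and Podxl, the total homo mean was above the total WT mean and the total heto mean below it. Nes, the gene of the filament protein nestin, had 28.1 ± 0.889, 42.3 ± 1.93 and 35.0 ± 1.36 CPM in nuclear WT, heto and homo and 43.9 ± 0.627, 23.5 ± 0.706 and 36.5 ± 0.758 CPM in total WT, heto and homo, with both mutant means of total RNA below WT.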
